A study of Homo sapiens with 9 samples.

Results

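Cell bodies of migrating human mesenchymal stem cells were compared, gene by gene, with unfractionated whole cells of the same line. The comparison used 6 of the 9 RNA libraries of the study, chosen by their labels alone: 3 cell body libraries and 3 whole cell libraries. The remaining 3 libraries hold pseudopodia. The cells were hTERT-MSC, mesenchymal stem cells of human adipose tissue immortalised with the telomerase subunit hTERT, so all groups come from 1 established line. Per the labels' protocols the cells were starved of serum overnight, detached with trypsin, which was stopped with serum-containing medium, and placed in serum-free medium on uncoated inserts whose membranes had pores of 3 µm. They attached for 2 h, and the insert was then moved over serum-free medium that held 50 ng/mL PDGF-BB, the platelet-derived growth factor dimer that attracts mesenchymal cells, for 1 h. Pseudopodia that had grown through the pores were scraped from the lower face first, and the cell body group is what was then scraped from the upper face. A library kit meant for small RNA amounts was used. The whole cell group carries the same PDGF-BB label, and the labels do not say how these cells were grown or lysed. Fractionation and any such difference in handling therefore cannot be told apart. Nor do the labels tie the libraries of a group to separate cultures. All p-values below rest on the spread among libraries of a group, and that spread may be technical only. The calls come from a fit of all 9 libraries, so the spread of the pseudopodia libraries enters them too.

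PDGF-BB binds the receptor tyrosine kinases PDGFRA and PDGFRB, which switch on the RAS and MAP kinase cascade. That cascade drives immediate early genes such as FOS and EGR1, whose mRNAs appear within minutes and are quickly destroyed, and later the delayed genes, among them FOSL1, the Sprouty and dual-specificity phosphatase inhibitors that dampen the cascade, and secreted growth factors such as HBEGF and VEGFA that act on neighbouring cells. Cells also answer heat, misfolded protein, oxidants, lack of oxygen and DNA damage with separate sets of stress genes, each under its own transcription factor, and mesenchymal stem cells are known for secreting growth factors and cytokines.

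The 6 libraries held between 55469030 and 83894938 counts. Cell body libraries varied more among themselves than whole cell libraries, with biological coefficients of variation of 17.6% and 5.09%. Pseudopodia libraries, which shared the fit, had 31.9%. The common value was 21.1% in the fit of all 9 libraries and 12.8% with only the 6 libraries. The first principal component of the 6 libraries, with 77.4% of the variance, separated the groups. The line's markers were present in both groups: the 14 mesenchymal and fibroblast markers summed to between 9471 and 9502 CPM (counts scaled to a common library total with the TMM factor) in cell bodies and between 7259 and 7636 in whole cells. Of the 10 endothelial markers KDR and CLDN5 were too low to test, and the list, mostly TEK, summed to 80.0 to 111 CPM in cell bodies and 79.0 to 81.1 in whole cells. Of the 8 tested, 2 were called higher and 0 lower (0 at an unadjusted edgeR p under 0.05, 0 in DESeq2, 1 in limma-voom). Of all genes tested 18.1% were called higher and 20.5% lower. The libraries of the groups did not overlap for 5 of the 8, and for 64.9% of all genes tested. The 2 called were among these 5. VWF stood at 3.20, 6.90 and 6.48 CPM against 1.43, 1.47 and 1.05 CPM (2.07 ± 0.37, adjusted p = 0.00252). PECAM1 stood at 7.23, 8.49 and 9.07 CPM against 3.76, 3.65 and 2.95 CPM (1.26 ± 0.17, adjusted p = 2.74e-04). The 8 haematopoietic markers summed to 73.2 to 83.6 and 67.0 to 69.6 CPM, mostly CD34, and HBB had no count in either group. CD14, also a member, was called higher, at 12.6, 11.6 and 10.2 CPM against 2.43, 2.54 and 2.15 CPM (2.28 ± 0.18, adjusted p = 8.63e-06). Epithelial markers summed to 281 to 320 CPM against 165 to 181, mostly from the keratins KRT18 and KRT8, while EPCAM did not exceed 0.0646 CPM in any of the 6 libraries. Adipocyte markers summed to 30.7 to 36.3 CPM against 10.3 to 11.01, almost all PPARG, and FABP4 had no count. The part of other cell types in the differences below was not tested. In bulk RNA, fewer cells of a type and less RNA per cell cannot be told apart.

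Of 19426 genes tested, 3521 (18.1%) rose and 3980 (20.5%) fell in cell bodies against whole cells, 38.6% in all, by edgeR's quasi-likelihood test at a Benjamini-Hochberg adjusted p of 0.05. A change of at least 2-fold was less even: 1059 genes (5.45%) rose and 2821 (14.5%) fell by that much. The median log2 difference over all genes tested was -0.06, and the cell body and whole cell libraries did not overlap for 12607 genes (64.9%). On the deposited TPM values, tested with limma on log2(TPM + 1), the split moved to 2643 higher and 5898 lower, so that 30.9% of the calls were higher instead of 46.9%, and on log2(TPM + 0.1) it was 2552 and 5315 with the median of all genes at -0.23. Without whole cell replicate 1 the counts were 2338 higher and 2711 lower. Fold changes followed base composition across genes: in the tertile of genes with the lowest GC content 609 rose and 1836 fell (median log2 difference -0.38), and in the highest tertile 1570 rose and 800 fell (median 0.14). Between GC content and log2 difference Pearson's r was 0.26 and Spearman's rho 0.28 over 18675 genes, which are not independent replicates, and the part of GC content in any single gene's difference was not tested beyond a fit with GC and length offsets, which called 4919 genes higher and 4262 lower.

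**Figure D1:**
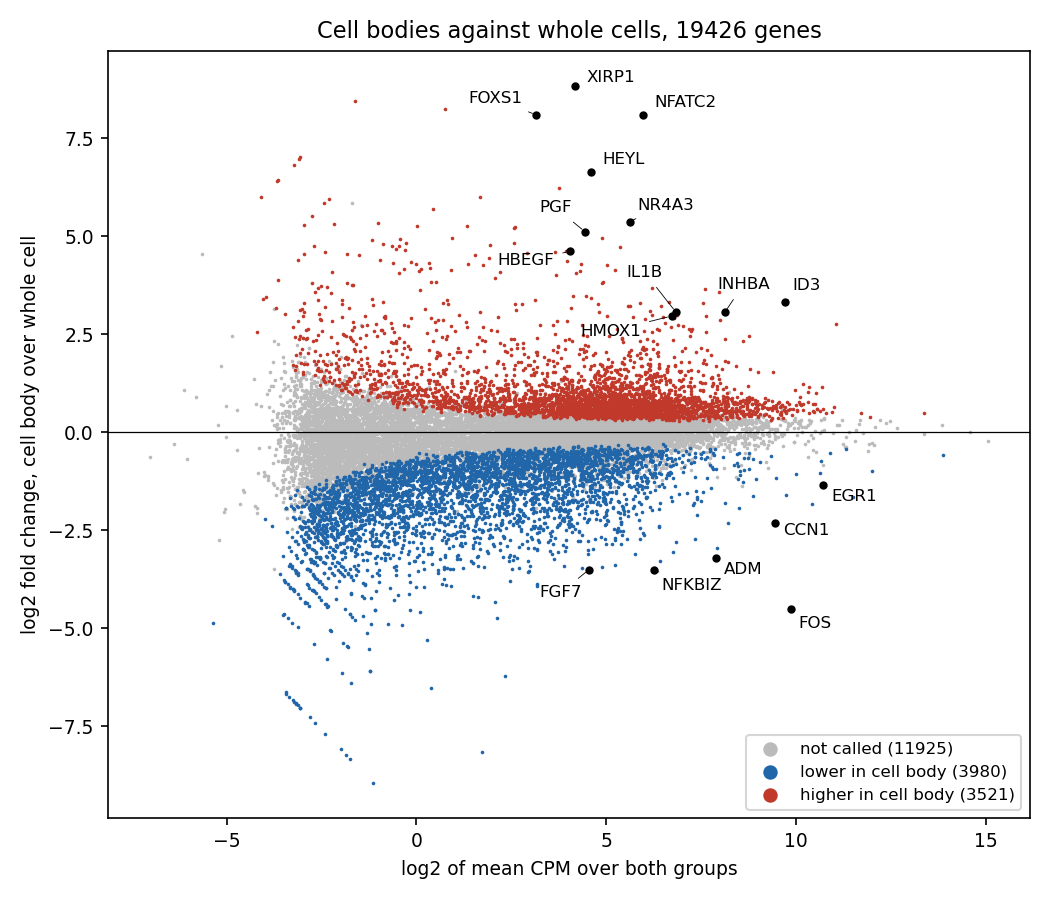
Each of the 19426 tested genes by its mean level (x axis, log2 CPM over the 6 libraries) and its log2 fold change, cell body over whole cell (y axis), with genes called higher in red, lower in blue, not called in grey and labelled genes in black. The labelled genes reach from XIRP1 at 8.85 to FOS at -4.50.

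The sharpest rises were in genes that whole cells barely held. XIRP1, an actin-binding protein known from muscle, stood at 26.5, 42.7 and 39.7 CPM in the 3 cell body libraries and 0.0653, 0.0729 and 0.0968 CPM in the 3 whole cell libraries, a log2 difference of 8.85 ± 0.34 (SE, adjusted p = 1.04e-07). NFATC2, a transcription factor released by the phosphatase calcineurin, stood at 86.7, 163 and 127 CPM against 0.479, 0.365 and 0.533 CPM, and FOXS1, a forkhead factor, at 15.3, 19.2 and 18.8 against 0.0653, 0.0583 and 0.0646. In all of them every cell body library was far above every whole cell library, by 8.09 ± 0.29 for NFATC2 and 8.10 ± 0.27 for FOXS1 on the log2 scale. The other genes among the 12 with the largest rise were HEYL, a target of Notch (6.65), the tight junction gene CLDN14 (6.23), the interleukin receptor IL21R (6.00), the orphan nuclear receptor NR4A3 (5.38), the kinase DCLK3 (5.23), placental growth factor PGF (5.12), the homeobox gene DLX3 (4.97), the hyaluronan synthase HAS1 (4.83) and BMP2 (4.79). They thus included 2 growth factor ligands, PGF and BMP2.

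Among the 12 genes with the deepest fall were FOS (-4.50), NFKBIZ, a nuclear member of the inhibitor of NF-kB family (-3.51), and the fibroblast growth factor FGF7 (-3.50). The others were the centrosome and spindle genes CEP295 (-4.72), ASPM (-3.87) and CEP126 (-3.54), the zinc finger genes ZNF624 (-4.17) and ZNF518A (-3.91), BTBD8 (-4.20), the chromatin gene ARID4A (-3.49) and the noncoding transcripts NR4A1AS and COPG2IT1. NR4A1AS stood at 6.89, 6.79 and 6.02 CPM in whole cells and at 0.0514, 0.0166 and 0 CPM in cell bodies, and COPG2IT1 at 10.5, 9.89 and 9.51 against 0.0857, 0.199 and 0.114. NR4A1AS lies antisense to NR4A1, and since no strand setting of the counting is given in the sources used here, reads of such a pair cannot be told apart.

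Abundant genes moved too. Rises of 2.02-fold to 2.24-fold were measured for TIMP3, an inhibitor of matrix proteases, LMNA, which encodes the nuclear lamins A and C, EMP1 and CRABP2. TIMP3 stood at 1820, 2583 and 2410 CPM in cell bodies and 1012, 1015 and 1014 CPM in whole cells (1.16 ± 0.16, adjusted p = 3.79e-04), without overlap. The 5 genes with the highest mean level among those that fell by at least 2-fold were the mitochondrial ribosomal RNA MT-RNR2 (-1.64), MT-ND2 (-1.07), MT-ND5 (-1.03), EGR1 (-1.35) and the matrix gene POSTN (-1.83). POSTN was no longer called without cell body replicate 2 or 3, nor without any 1 of the whole cell libraries (log2 difference -1.83 to -1.63 in those fits).

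Secreted growth factors and cytokines rose more often than they fell. Of 91 ligands listed, 75 passed the filter on low counts. Among them 31 rose and 8 fell, with a median log2 difference of 0.48 against -0.06 over all genes tested, and 26 rose by at least 2-fold against a background of 5.45%. Without a fold threshold the backgrounds were 18.1% higher and 20.5% lower. The members of each family differed, and the plot of called ligands by library shows both directions.

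**Figure D2:**
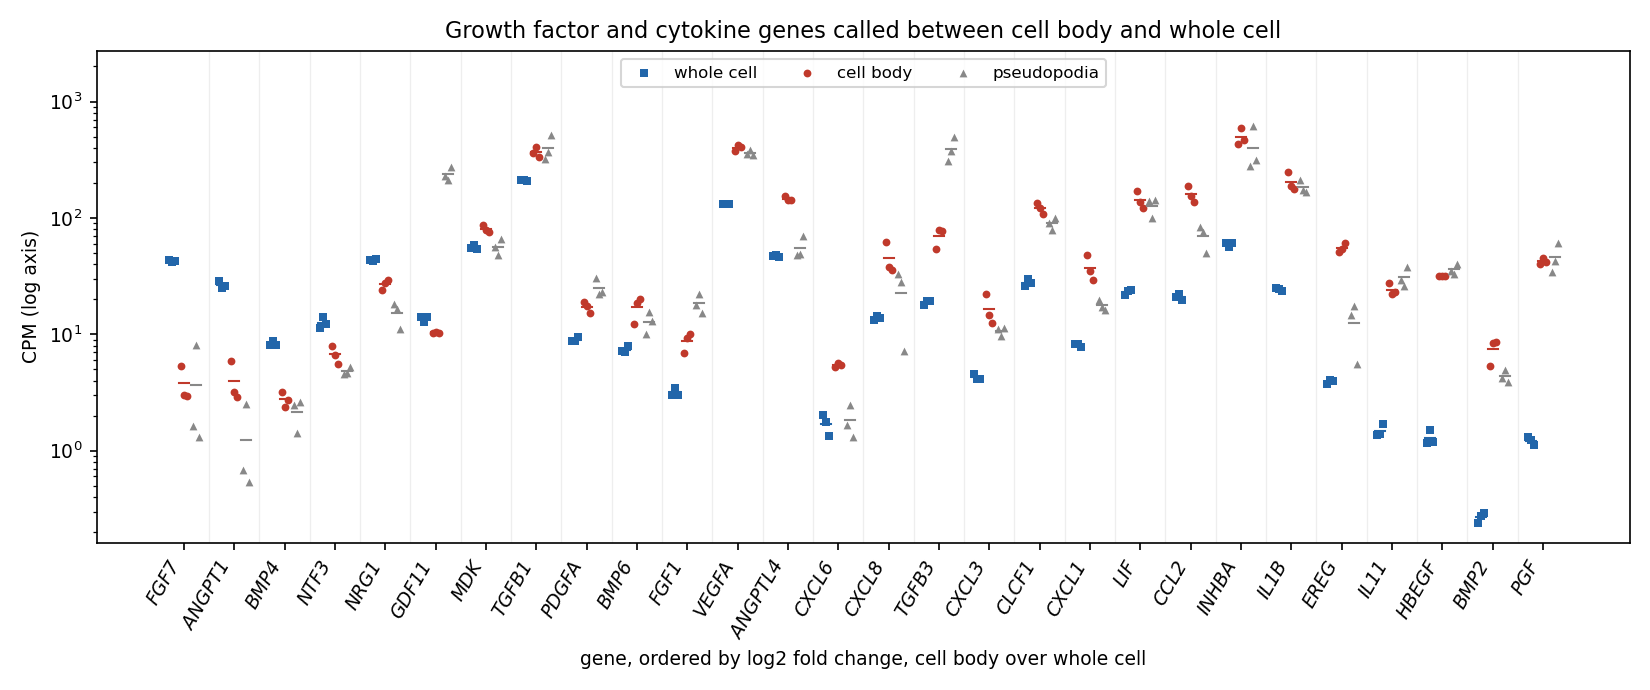
CPM (log axis) of 28 growth factor and cytokine genes called between cell body and whole cell, with a mean of at least 5 CPM in the higher of these groups, ordered from the deepest fall to the sharpest rise. Each symbol is 1 library (whole cell squares, cell body circles, pseudopodia triangles) and short lines are group means: FGF7 and ANGPT1 sit far lower in cell bodies, and PGF, BMP2 and HBEGF far higher.

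Ligands of the EGF receptor family came first. HBEGF, which is shed from the cell surface by proteases, stood at 31.4, 31.7 and 31.7 CPM in cell bodies and 1.17, 1.502 and 1.19 CPM in whole cells. The groups lay far apart, and the cell body values were nearly equal (4.62 ± 0.16 on the log2 scale, adjusted p = 1.04e-07). EREG, epiregulin, stood at 50.7, 53.8 and 61.2 against 3.73, 4.08 and 3.95 CPM and rose by 3.81 ± 0.37 (adjusted p = 8.91e-05). AREG was called higher at a low level (1.17, 0.780 and 0.442 against 0.185, 0.219 and 0.323 CPM), but not without cell body replicate 1 or 2, nor without any 1 of the whole cell libraries (log2 difference 1.35 to 1.97). NRG1, neuregulin 1, went the other way, from 43.8, 42.6 and 44.3 CPM in whole cells to 24.2, 27.6 and 29.3 CPM in cell bodies (-0.69 ± 0.18, adjusted p = 0.0101). EGF, BTC, EPGN and NRG2 were not called, with overlapping libraries, and TGFA, NRG3 and NRG4 were too low to test.

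Among the PDGF, VEGF and angiopoietin ligands 5 of 12 rose and 1 fell (median 0.19). The shares of 41.7% and 8.33% compare with 18.1% and 20.5% of all genes tested. PGF, which binds the VEGF receptor FLT1, stood at 40.1, 44.8 and 42.0 CPM against 1.31, 1.22 and 1.11 CPM. VEGFA, the main angiogenic factor, stood at 374, 421 and 405 CPM against 131, 130.4 and 132 CPM and rose by 1.61 ± 0.11 (adjusted p = 2.79e-06), and ANGPTL4 rose by 1.63 ± 0.15. PDGFA rose by 0.95 ± 0.16 (adjusted p = 0.00113). The mRNA of PDGFB, which encodes the chain of the PDGF-BB that was added, was nearly absent: 0.240, 0.315 and 0.199 CPM in cell bodies and 0, 0 and 0.0161 CPM in whole cells. It was called higher (adjusted p = 0.00130) and is 1 of the 5, and no fold change is given because the whole cell libraries held almost no reads of it. ANGPT1, the ligand of the endothelial receptor TEK, fell from 28.7, 25.04 and 26.0 CPM to 5.88, 3.17 and 2.91 CPM (-2.74 ± 0.52, adjusted p = 0.00358). Its paralog ANGPT2 and VEGFB, VEGFC, VEGFD, PDGFC and PDGFD were not called.

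The fibroblast growth factors split. FGF7, a factor that acts on epithelial cells, stood at 43.7, 42.2 and 42.5 CPM in whole cells and 5.36, 3.04 and 2.93 CPM in cell bodies (-3.50 ± 0.64, adjusted p = 0.00303). No library of one group reached the range of the other. FGF1, by contrast, rose from 3.03, 3.47 and 3.02 CPM to 6.94, 9.32 and 10.1 CPM (1.47 ± 0.19, adjusted p = 2.49e-04). FGF16 and FGF18 rose at 5.24 CPM or less, and FGF17 fell at 0.307 CPM or less. The call of FGF16 was lost without cell body replicate 1 or whole cell replicate 1 or 2 (log2 difference 0.50 to 0.65). That of FGF17 was lost without cell body replicate 1 or 2 and without any 1 of the whole cell libraries (log2 difference -1.83 to -1.56). FGF2, FGF5 and FGF22 were not called, and FGF4, FGF9, FGF10, FGF20 and FGF21 were too low to test.

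Of 14 insulin-like and hepatocyte growth factor ligands, neurotrophins and other ligands, 2 rose and 1 fell. These shares of 14.3% and 7.14% lie below the backgrounds of 18.1% and 20.5%. The median of 0.10 was below 0 on log2(TPM + 1). MDK, midkine, rose by 0.53 ± 0.14, and the neurotrophin NTF3 fell by 0.90 ± 0.17. HGF stood at 16.3, 16.4 and 16.5 CPM in cell bodies and 33.2, 28.99 and 32.2 CPM in whole cells without reaching the threshold (adjusted p = 0.121), although its libraries did not overlap.

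The TGF-beta and BMP family held rises at high levels. INHBA, the subunit of activin A, stood at 429, 592 and 469 CPM in cell bodies and 60.8, 56.5 and 61.1 CPM in whole cells, 8.35-fold higher (3.06 ± 0.29, adjusted p = 6.89e-05). BMP2, a bone-forming ligand, stood at 5.35, 8.34 and 8.65 CPM against 0.240, 0.277 and 0.291 CPM. TGFB1 rose by 0.80 ± 0.17, TGFB3 by 1.89 ± 0.20, BMP6 by 1.21 ± 0.21 and INHBB by 1.03 ± 0.24. INHBB was low, with a mean of 1.52 TPM in cell bodies against 0.837 TPM in whole cells. BMP4 moved opposite to BMP2, from 8.04, 8.68 and 8.12 CPM in whole cells to 3.19, 2.39 and 2.72 CPM in cell bodies (-1.58 ± 0.23, adjusted p = 4.31e-04). GDF6 fell by 1.03 ± 0.21. GDF11 fell by 0.39 ± 0.13, a call lost in every fit that left out 1 library (log2 difference -0.41 to -0.35). TGFB2 (-0.87, adjusted p = 0.132) and the stress-linked GDF15 (-0.14, adjusted p = 0.576) were not called.

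Cytokines and chemokines rose in 12 of 18 tested cases and fell in 0, with a median of 1.83 (1 was lower at an unadjusted edgeR p under 0.05, 0 in DESeq2 and 2 in limma-voom). The shares of 66.7% and 0% compare with 18.1% and 20.5% of all genes tested. IL1B, the inflammatory interleukin, stood at 248, 188 and 176 CPM in cell bodies against 25.2, 24.5 and 23.3 CPM in whole cells (3.07 ± 0.16, adjusted p = 4.96e-07). CCL2, which recruits monocytes, stood at 188, 155 and 138 CPM against 20.9, 22.3 and 19.7 CPM (2.93 ± 0.20), and LIF at 171, 136 and 122 CPM against 22.0, 23.8 and 23.9 CPM (2.62 ± 0.18). IL11, a relative of LIF, stood at 27.6, 22.0 and 23.0 CPM against 1.36, 1.40 and 1.69 CPM (4.03 ± 0.20, adjusted p = 2.65e-07). In IL1B, CCL2 and LIF cell body replicate 1 was the highest, and the groups stayed far apart in each. CXCL1, CXCL3, CXCL6, CXCL8, CLCF1, CCL7, IL1A and TNF also rose, the last 3 at 5.02 CPM or less. CXCL8 was not called without cell body replicate 1 or any 1 of the whole cell libraries (log2 difference 1.43 to 1.77). IL6, a cytokine that mesenchymal stem cells are known to secrete, stood at 4.68, 4.01 and 3.16 CPM against 5.63, 5.15 and 5.44 CPM and was not called (adjusted p = 0.0795). CXCL12, a chemokine of stromal cells, stood at 578, 589 and 573 CPM against 530.4, 538 and 533 CPM and was not called either. CXCL2, CXCL5, CCL5 and IL33 were not called, and CSF2, CSF3 and CCL20 were too low to test.

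The order of ligand levels per transcript length differed between the groups. In whole cells the highest TPM values belonged to CXCL12 (406 ± 7.24, SD, n = 3), VEGFB (354 ± 23.5), TGFB1 (302 ± 10.6) and GAS6 (161 ± 5.27). In cell bodies they belonged to TGFB1 (465 ± 42.2), CXCL12 (391 ± 2.12), VEGFB (360 ± 42.5) and CCL2 (343 ± 52.0), followed by IL1B (281 ± 52.0), CLCF1 (273 ± 27.2) and INHBA (248 ± 39.6). From CXCL12 to INHBA each gap between neighbours in the cell body order was smaller than their SDs added together, while TGFB1 lay 74.8 above CXCL12, against 44.3 for their SDs added. In the whole cell order CCL2 was number 12 of the 75 ligands tested, IL1B number 15 and INHBA number 16.

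Few receptors were called. Of 31 growth factor receptors tested, 5 rose and 4 fell, shares of 16.1% and 12.9% that lie below the backgrounds of 18.1% and 20.5%, and their median of -0.07 was above 0 with GC and length offsets. Without any 1 of the whole cell libraries or cell body replicate 2 or 3, 2 or 3 receptors rose. TGFBR1, a TGF-beta receptor, stood at 62.2, 80.2 and 87.3 CPM in cell bodies against 36.8, 34.8 and 35.9 CPM in whole cells (1.10 ± 0.26, adjusted p = 0.00778). ACVR1 rose by 0.61 ± 0.12. The PDGF receptors themselves stood at 1346, 1875 and 1750 CPM for PDGFRB in cell bodies against 1142, 1098 and 1141 CPM, and at 368, 468 and 515 CPM for PDGFRA against 581, 557 and 577 CPM. PDGFRB was called higher (0.56 ± 0.16, adjusted p = 0.0193), but not without cell body replicate 2 or 3, nor without any 1 of the whole cell libraries (log2 difference 0.47 to 0.58). PDGFRA was not called (-0.34 ± 0.17, adjusted p = 0.140). EGFR, the receptor of HBEGF and EREG, stood at 228, 397 and 413 CPM against 271, 243 and 263 CPM, with overlapping libraries. FGFR1 rose by 0.48 ± 0.15, and ERBB3 (-0.51 ± 0.16) and DDR2 (-0.55 ± 0.18) fell. The calls of these 3 genes were lost without cell body replicate 3 and without any 1 of the whole cell libraries, that of FGFR1 also without cell body replicate 2 (log2 difference 0.43 to 0.51), and those of ERBB3 and DDR2 also without cell body replicate 1 (-0.54 to -0.37 and -0.58 to -0.40). That of DDR2 was lost in DESeq2 too, and with GC and length offsets, where its log2 difference was -0.06. With only the 6 libraries in the fit the receptor counts became 6 higher and 12 lower. Of 24 binding proteins and secreted antagonists, 3 rose and 0 fell, shares of 12.5% and 0% that also lie below the backgrounds of 18.1% and 20.5%. The number lower was 0 at an unadjusted edgeR p under 0.05, 0 in DESeq2 and 3 in limma-voom. Those that rose were the activin inhibitor FSTL3 (0.81 ± 0.14), IGFBP6 (0.71 ± 0.16) and DKK3 (0.32 ± 0.11). The call of DKK3 was lost in every fit that left out 1 library (0.32 to 0.35).

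Immediate early genes moved in both directions. Of 46 members, all tested, 23 rose and 13 fell, shares of 50.0% and 28.3% against 18.1% and 20.5% of all genes tested. FOS, a subunit of the AP-1 factor and the textbook immediate early gene, stood at 1736, 1803 and 1776 CPM in whole cells and at 88.6, 78.5 and 67.7 CPM in cell bodies, 22.6-fold lower (-4.50 ± 0.17, adjusted p = 1.04e-07). The lowest whole cell library lay far above the highest cell body library. FOS lies at chr14:75278774-75282230 on GRCh38. EGR1, a zinc finger factor, stood at 2352, 2352 and 2551 CPM in whole cells and 989, 1156 and 706 CPM in cell bodies (-1.35 ± 0.19, adjusted p = 3.29e-04), again without overlap. CCN1, a secreted matrix-associated protein, fell from 1162, 1203 and 1146 CPM to 285, 223 and 195 CPM (-2.32 ± 0.16), HES1, a repressor driven by Notch, by 2.80 ± 0.18, and KLF2 by 2.08 ± 0.16. JUN (-1.92), FOSB (-1.59) and JUNB (-0.66), named here after their values were seen, were also called lower.

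The members that rose stood high in cell bodies instead. FOSL1, the AP-1 partner that follows FOS in a growth factor response, stood at 409.6, 561 and 428 CPM in cell bodies and 37.7, 39.0 and 39.4 CPM in whole cells, 12.04-fold higher (3.59 ± 0.18, adjusted p = 2.65e-07). NR4A3 stood at 87.2, 103 and 96.6 CPM against 2.20, 2.49 and 2.18 CPM. ID3, an inhibitor of basic helix-loop-helix factors, stood at 1743, 1455 and 1384 CPM against 144, 156 and 152 CPM (3.34 ± 0.16, adjusted p = 2.48e-07). ARC rose by 4.37 ± 0.22. In each of these the groups lay far apart. Close relatives differed: NR4A1 (364, 243 and 185 CPM against 273, 252 and 275 CPM) and NR4A2 (65.1, 46.7 and 42.6 CPM against 45.8, 44.1 and 46.9 CPM) overlapped and were not called, beside the rise of NR4A3, and EGR3 rose by 2.05 ± 0.17 where EGR1 fell. NR4A1, NR4A2 and EGR3 were named after their values were seen.

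**Figure D3:**
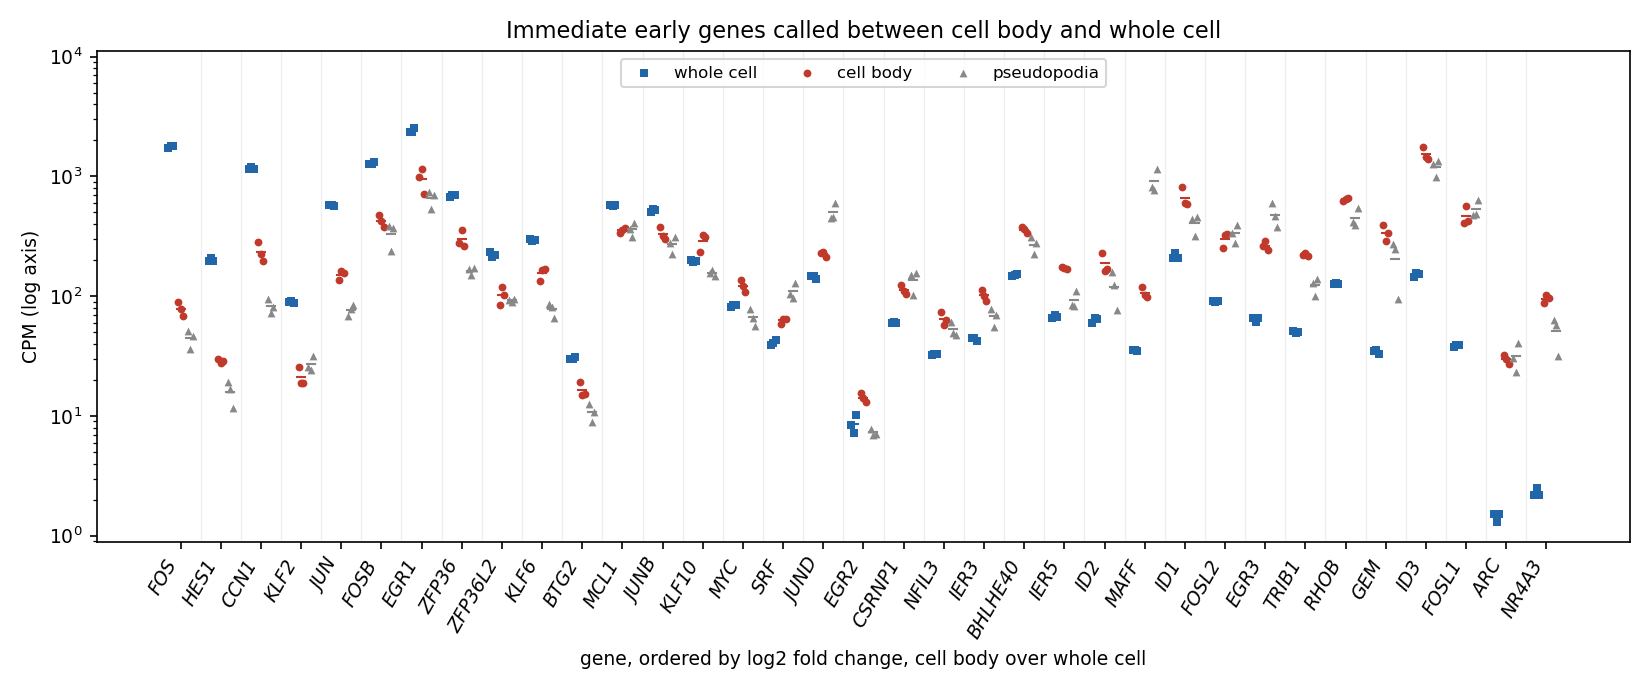
CPM (log axis) of the 35 immediate early genes that were called between cell body and whole cell, with a mean of at least 5 CPM in the higher of these groups, ordered from the deepest fall (FOS) to the sharpest rise (NR4A3). Each symbol is 1 library and short lines are group means: whole cell squares sit above the cell body circles at the FOS end and below them at the NR4A3 end.

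Promoters of 34 of the 46 immediate early genes were found in the RefSeq table (GRCh38.p14, 250 bases before to 50 after the start). The CArG box, the site of the serum response factor, was searched on both strands as CC, then 6 bases that are A or T, then GG. It was in 1.29% of all 27305 promoters, in 1 of the 10 promoters of members that fell (EGR1) and in 1 of the 15 of members that rose (SRF, the gene of the factor itself). FOS, another of the 10, had 0 matches in this window, and bases more than 250 before the start were not searched. The AP-1 site TGACTCA was in 4.92% of all promoters and in 1 of the 15. The promoters of EGR1 (chr5:138465229-138465528, plus strand) and SRF (chr6:43171019-43171318, plus strand) are shown because they carry the same motif and their mRNAs were called in opposite directions (SRF was chosen after its value was seen), with SRF at 58.8, 64.6 and 64.5 CPM in cell bodies against 39.1, 41.0 and 42.8 CPM (0.61 ± 0.13). Capitals mark the CArG boxes, 2 in each, at -105 to -96 and -83 to -74 from the start in EGR1 and at -30 to -21 and -10 to -1 in SRF. A match is a description of the letters only.
EGR1: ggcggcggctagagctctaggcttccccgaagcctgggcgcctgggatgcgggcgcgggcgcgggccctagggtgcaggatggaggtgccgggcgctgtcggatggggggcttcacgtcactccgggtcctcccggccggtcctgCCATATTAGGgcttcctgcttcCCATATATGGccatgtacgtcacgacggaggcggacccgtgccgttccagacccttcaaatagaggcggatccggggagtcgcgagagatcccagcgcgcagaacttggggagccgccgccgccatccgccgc
SRF: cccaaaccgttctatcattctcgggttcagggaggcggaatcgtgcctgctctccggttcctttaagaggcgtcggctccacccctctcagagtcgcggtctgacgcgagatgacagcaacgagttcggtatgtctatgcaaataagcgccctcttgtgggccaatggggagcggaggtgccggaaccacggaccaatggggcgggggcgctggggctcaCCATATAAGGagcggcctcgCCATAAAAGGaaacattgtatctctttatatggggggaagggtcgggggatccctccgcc

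Of 22 feedback inhibitors of growth factor and cytokine signalling, 15 were called higher and 3 lower, with a median of 1.03. Against 18.1% and 20.5% of all genes tested, these were 68.2% and 13.6% of the inhibitors. Most of them act on the MAP kinase cascade or on the receptors above it, but CISH, SOCS1 and SOCS3 act on cytokine receptors and RGS2 on G proteins, and SOCS1 and SOCS3 were among those that rose. SPRY2, a Sprouty inhibitor of receptor tyrosine kinase signalling, stood at 149, 123 and 120.1 CPM in cell bodies against 15.9, 16.8 and 16.8 CPM in whole cells (2.99 ± 0.15, adjusted p = 3.82e-07). ERRFI1, an inhibitor of EGFR, stood at 232, 291 and 275 CPM against 43.2, 43.3 and 41.4 CPM (2.64 ± 0.13), and SPRY4 rose by 2.32 ± 0.18. DUSP6, a phosphatase of ERK, stood at 109.7, 108 and 106 CPM against 23.3, 26.0 and 24.9 CPM (2.13 ± 0.12). The groups did not overlap in any of these genes. The inhibitors that fell were DUSP1, a phosphatase of early response (272, 229 and 205 CPM against 488, 505 and 493 CPM, -1.07 ± 0.15), SPRY1 (-2.60 ± 0.22) and DUSP10 (-0.48 ± 0.15), the last lost in every fit that left out 1 library (-0.52 to -0.37).

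Stress response genes rose more often than they fell. Over 8 stress lists, 156 of 161 genes were tested, and 73 rose and 10 fell, where 18.1% of all genes tested rose and 20.5% fell. The median log2 difference was 0.37 against -0.06 over all genes. By at least 2-fold 28 rose and 7 fell, where 5.45% and 14.5% of all genes tested did so.

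Heat shock genes, which encode chaperones under the factor HSF1, rose in 16 of 24 cases and fell in 1 (median 0.41). These shares were 66.7% and 4.17%, against 18.1% and 20.5% of all genes tested. BAG3, a partner of HSP70, stood at 185, 215 and 197 CPM in cell bodies and 69.6, 72.1 and 73.4 CPM in whole cells (1.47 ± 0.12, adjusted p = 7.38e-06). HSPB8, a small heat shock protein that works with BAG3, stood at 95.6, 94.3 and 98.0 CPM against 32.4, 33.9 and 31.9 CPM (1.55 ± 0.14). The HSP40 genes DNAJB1 and DNAJB4 rose by 1.08 ± 0.14 and 1.297 ± 0.33. The constitutive HSP70 gene HSPA8 stood at 1641, 1552 and 1665 CPM against 931, 990.0 and 921 CPM and rose by 0.77 ± 0.13 (adjusted p = 9.70e-04). The inducible HSPA1A, which heat raises many-fold, stood at 46.9, 44.9 and 47.9 CPM against 35.1, 36.5 and 34.0 CPM (0.40 ± 0.15, adjusted p = 0.0469), a call lost in every fit that left out 1 library (0.38 to 0.45). HSPA1A and HSPA1B are near-identical copies, so reads of either may be counted for the other. HSPA6 rose at 0.891 CPM or less. HSPA4L fell from 6.49, 5.44 and 5.28 CPM to 1.03, 1.18 and 0.798 CPM (-2.52 ± 0.32). HSP90AA1 was not called (210.3, 265 and 102 CPM against 359, 362 and 362 CPM, adjusted p = 0.0795), and its cell body libraries spread widely, with replicate 3 the lowest.

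The heat shock element, searched on both strands as TTC, GAA and TTC or as GAA, TTC and GAA, each triplet 2 bases from the next, was in 0.487% of all promoters. It was in 4 of the 15 matched promoters of heat shock genes that rose (HSPA8, DNAJA1, HSPA6 and SERPINH1, the last no longer called in any fit that left out 1 library, with log2 differences of 0.37 to 0.41) and in 1 of the 6 that were not called, CHORDC1, of 22 promoters matched in all. HSPA8 (chr11:123062087-123062386, minus strand), DNAJA1 (chr9:33025023-33025322, plus strand) and CHORDC1 (chr11:90223000-90223299, minus strand), chosen after their values and motifs were seen, are shown because all of them hold the element while only HSPA8 and DNAJA1 were called by edgeR in the fit of all 9 libraries. DNAJA1 rose by 1.05 ± 0.17, and CHORDC1 stood at 9.68, 7.53 and 7.11 CPM in cell bodies against 19.1, 16.8 and 17.9 CPM (adjusted p = 0.0708), without overlap. CHORDC1 was called lower with only the 6 libraries, in DESeq2, in limma-voom and on both log2 TPM scales. Capitals mark the matches, which overlap each other in CHORDC1.
HSPA8: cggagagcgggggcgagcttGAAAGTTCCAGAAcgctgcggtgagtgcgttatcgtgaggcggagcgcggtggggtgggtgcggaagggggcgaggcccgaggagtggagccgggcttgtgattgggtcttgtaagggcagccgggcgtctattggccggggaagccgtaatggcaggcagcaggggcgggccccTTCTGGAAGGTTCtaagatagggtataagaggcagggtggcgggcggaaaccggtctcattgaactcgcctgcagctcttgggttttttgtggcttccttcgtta
DNAJA1: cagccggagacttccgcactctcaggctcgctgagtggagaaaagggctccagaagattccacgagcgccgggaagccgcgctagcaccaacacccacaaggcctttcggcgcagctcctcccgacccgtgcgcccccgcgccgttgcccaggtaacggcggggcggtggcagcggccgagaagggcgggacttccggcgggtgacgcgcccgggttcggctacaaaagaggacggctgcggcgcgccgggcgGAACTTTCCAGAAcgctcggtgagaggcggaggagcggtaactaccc
CHORDC1: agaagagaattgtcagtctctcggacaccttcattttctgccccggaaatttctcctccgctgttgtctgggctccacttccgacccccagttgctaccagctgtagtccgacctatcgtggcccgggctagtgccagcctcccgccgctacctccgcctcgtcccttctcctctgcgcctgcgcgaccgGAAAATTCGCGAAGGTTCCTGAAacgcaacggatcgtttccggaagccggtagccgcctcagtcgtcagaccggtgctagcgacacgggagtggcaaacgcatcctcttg

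The unfolded protein response of the endoplasmic reticulum showed 13 of 22 tested members higher and 1 lower (median 0.45), with 8 higher when whole cell replicate 3 was left out. In the main fit these were 59.1% and 4.5%, against 18.1% and 20.5% of all genes tested. XBP1, the factor whose mRNA is spliced in this response, stood at 255, 252 and 254 CPM in cell bodies against 82.7, 89.6 and 85.3 CPM in whole cells (1.56 ± 0.12, adjusted p = 7.32e-06). HSPA5, the main chaperone of the compartment, stood at 555, 581 and 573 CPM against 346, 345 and 342 CPM (0.73 ± 0.13, adjusted p = 0.00162). Within each group the values of both genes were close. SDF2L1 (1.46 ± 0.17), DNAJB9 (1.24 ± 0.15) and MANF (0.97 ± 0.14) also rose. HSP90B1 was the member that fell (273, 302 and 116 CPM against 703, 727 and 694 CPM, -1.62 ± 0.47), and its call was lost without cell body replicate 1 or 3 and without any 1 of the whole cell libraries (-1.75 to -1.27).

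In the integrated stress response, which acts through translation of ATF4, 9 of 29 members rose and 2 fell (median 0.30), and the fit with only the 6 libraries gave 15 and 5. The main fit's shares were 31.0% and 6.90%, against 18.1% and 20.5% of all genes tested. CEBPB rose by 1.72 ± 0.14, and the amino acid transporters SLC7A5 by 1.55 ± 0.16, SLC7A1 by 1.16 ± 0.19 and SLC3A2 by 0.89 ± 0.15. ATF4 itself stood at 638, 530.4 and 501 CPM against 366, 400.0 and 385 CPM (0.54 ± 0.14, adjusted p = 0.0119) and was not called without whole cell replicate 1 (0.52). DDIT3, its proapoptotic target, stood at 16.8, 11.6 and 12.4 CPM against 13.9, 16.3 and 14.3 CPM with overlap and was not called. The targets ASNS, TRIB3, CHAC1 and PSAT1 were not called either. DDIT4 fell from 45.0, 48.2 and 45.1 CPM to 16.8, 12.3 and 11.9 CPM (-1.75 ± 0.20, adjusted p = 8.26e-05), and STC2 fell by 0.45 ± 0.12, a call lost without whole cell replicate 2 (-0.41).

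Oxidative stress genes of the factor NRF2 rose in 10 of 18 tested cases with 0 lower (0 at an unadjusted edgeR p under 0.05, 0 in DESeq2, 1 in limma-voom, median 0.48), and in 6 without whole cell replicate 3. The main fit's shares were 55.6% and 0%, against 18.1% and 20.5% of all genes tested. HMOX1, haem oxygenase 1, stood at 181, 185 and 194 CPM in cell bodies and 23.3, 24.7 and 23.5 CPM in whole cells, 7.83-fold higher (2.97 ± 0.16, adjusted p = 4.89e-07). OSGIN1 rose by 1.55 ± 0.15, PRDX1 by 0.81 ± 0.14 and TXN by 0.79 ± 0.20. The glutamate-cysteine ligase genes GCLM and GCLC and TXNRD1, standard NRF2 targets, were not called. NQO1 was called higher (0.38 ± 0.13), but not in any fit that left out 1 library (0.36 to 0.42). Among the 18 members HMOX1 had the largest log2 difference.

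Hypoxia genes rose in 8 of 20 tested cases, a share of 40.0% against 18.1% of all genes, and fell in 1. Their median was 0.15. With GC and length offsets 13 rose and the median was 0.49, while on log2(TPM + 1) 6 rose and the median was -0.02. HK2, a hexokinase, stood at 69.2, 104 and 114 CPM against 24.7, 22.8 and 22.9 CPM (2.03 ± 0.18, adjusted p = 1.70e-05), and the glucose transporter SLC2A1 rose by 1.22 ± 0.13, NDRG1 by 1.12 ± 0.15 and ENO1 by 0.68 ± 0.15. ADM, the peptide hormone adrenomedullin, was the exception, with 417, 446 and 419.6 CPM in whole cells and 60.5, 39.9 and 38.5 CPM in cell bodies, 9.23-fold lower (-3.21 ± 0.20, adjusted p = 1.39e-06). BNIP3, CA9 and P4HA1 were not called.

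Of 21 genes of the p53 response 6 rose and 3 fell, shares of 28.6% and 14.3% against backgrounds of 18.1% and 20.5%, with a median of -0.08 that was above 0 with GC and length offsets. The counts were 8 and 8 with only the 6 libraries and in limma-voom, and 4 and 7 on log2(TPM + 1). CDKN1A, the cell cycle inhibitor p21, stood at 745, 772 and 776 CPM against 254, 268 and 262 CPM (1.55 ± 0.15, adjusted p = 2.77e-05). AEN rose by 1.78 ± 0.15 and PHLDA3 by 1.10 ± 0.16. GADD45A rose by 1.53 ± 0.47, a call lost without cell body replicate 1 or 3 and without any 1 of the whole cell libraries (1.39 to 1.58). BBC3, the proapoptotic PUMA, fell from 16.8, 16.6 and 16.8 CPM to 5.09, 3.27 and 2.91 CPM (-2.16 ± 0.24), TP53INP1 by 0.93 ± 0.17, lost with GC and length offsets, and PLK2 by 0.62 ± 0.11. MDM2, the p53 inhibitor, stood at 32.5, 23.5 and 25.4 CPM against 52.8, 53.6 and 51.7 CPM and was not called (adjusted p = 0.0564).

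NF-kB genes rose in 9 of 17 cases and fell in 2 (median 0.77), and in 5 with GC and length offsets. The main fit's shares were 52.9% and 11.8%, against 18.1% and 20.5% of all genes tested. TNFAIP3, the feedback inhibitor A20, stood at 74.9, 118 and 113 CPM against 22.8, 22.4 and 22.8 CPM (2.17 ± 0.17, adjusted p = 6.64e-06). RELB rose by 1.67 ± 0.15, the adhesion gene ICAM1 by 1.502 ± 0.16 and NFKBIE by 1.47 ± 0.15. NFKBIA, the classical inhibitor, stood at 71.8, 72.5 and 70.1 CPM against 72.6, 80.3 and 74.4 CPM and was not called. NFKBIZ fell from 144, 135 and 144 CPM to 13.3, 12.2 and 11.4 CPM (-3.51 ± 0.19, adjusted p = 4.96e-07), and BIRC3 fell by 1.42 ± 0.39, lost without cell body replicate 2 or 3 or whole cell replicate 1 (-1.24 without cell body replicate 3). Of 5 metallothioneins tested, MT2A (0.57 ± 0.15, lost without whole cell replicate 1, where it was 0.57) and MT1X (1.57 ± 0.22, 2.59 CPM or less) rose.

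**Figure D4:**
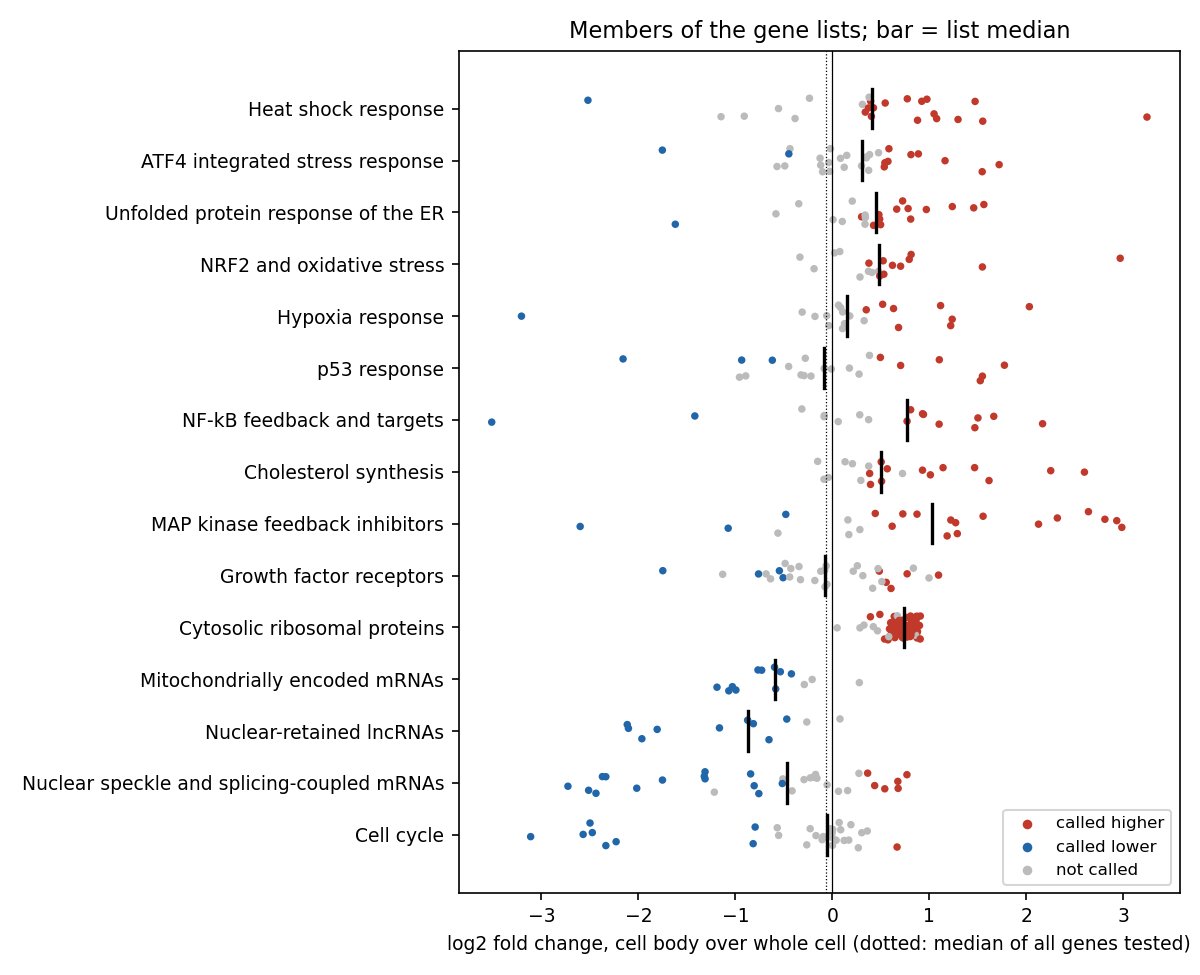
Log2 fold change, cell body over whole cell, of the tested members of 15 gene lists (1 point a gene, red called higher, blue called lower, grey not called), with the list median as a bar and the median of all genes tested, -0.06, as a dotted line. Ribosomal protein genes lie close together around 0.74, stress lists spread to the right with single genes such as ADM, NFKBIZ and HSPA4L far to the left, and the long noncoding RNAs and mitochondrial mRNAs lie mostly to the left.

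Transcript classes of particular compartments also differed. Messenger RNAs of cytosolic ribosomal proteins rose in 72 of 80 cases and fell in 0, also at an unadjusted edgeR p under 0.05, in DESeq2 and in limma-voom (median 0.74), with RPS2 at 1867, 1735 and 1807 CPM against 1144, 1284 and 1165 CPM (0.59 ± 0.14, adjusted p = 0.00673) and RPL37A at 0.90 ± 0.14. They made up 4.69% ± 0.685 of the counts (SD, n = 3) in cell bodies and 3.15% ± 0.197 in whole cells. Against 18.1% of all genes tested, 90.0% of these ribosomal protein genes rose. Several of these genes have many pseudogene copies, which makes single values uncertain. The mitochondrially encoded mRNAs fell in 10 of 13 cases and rose in 0 (0 at an unadjusted edgeR p under 0.05, 0 in DESeq2, 1 in limma-voom), and fell in 6 without whole cell replicate 3. The share that fell in the main fit was 76.9%, against 20.5% of all genes tested. MT-CO1, a subunit of cytochrome oxidase, stood at 11295, 12692 and 11635 CPM against 16955, 17811 and 18619 CPM (-0.58 ± 0.11, adjusted p = 0.00258), and MT-ND4L fell most (-1.19 ± 0.14). These mRNAs made up 2.84% ± 0.228 of the counts in cell bodies and 4.67% ± 0.277 in whole cells. For either class every cell body library lay on one side of every whole cell library (two-sided exact permutation p = 0.1, the smallest that 3 against 3 can give).

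Several RNAs of the nucleus, which stays above the membrane, were lower in cell bodies. Of a list of 11 long noncoding RNAs, most of them known from the nucleus, 9 fell and 0 rose (median -0.87), also at an unadjusted edgeR p under 0.05, in DESeq2 and in limma-voom with 0 higher. The share that fell was 81.8%, against 20.5% of all genes tested. The list summed to 711 to 973 CPM in cell bodies, 1360 to 1426 in whole cells and 999 to 1075 in pseudopodia. Whether it tracks nuclear content was not tested. NEAT1, the scaffold of paraspeckles, stood at 106, 126 and 139 CPM in cell bodies and 429, 431 and 437 CPM in whole cells (-1.81 ± 0.13, adjusted p = 2.99e-06). FTX (-2.10 ± 0.21) and KCNQ1OT1 (-1.96 ± 0.31) fell, and NORAD, which is known to leave the nucleus, was not called. MALAT1, among the 9 that fell and named after its value was seen, was counted at only 0.556 to 4.05 CPM and cannot be read as a marker here. Among 32 genes of nuclear speckles and splicing 14 fell and 6 rose (median -0.46). The share that fell was 43.8%, against 20.5% of all genes tested. The share that rose, 18.8%, was close to the background of 18.1%. CCNL1 stood at 54.9, 43.3 and 29.6 CPM against 287, 277 and 283 CPM (-2.73 ± 0.31), and LUC7L3, NKTR and TTC14 fell by 2.37 to 2.51 on the log2 scale, while the splicing factors DDX5 (0.77 ± 0.12), SRSF2 (0.68 ± 0.13), SRSF5 (0.54 ± 0.11) and SRSF6 (0.68 ± 0.10) rose. By annotation, 3036 of 13986 protein-coding genes rose and 2416 fell, while 65 of 1393 antisense genes rose and 475 fell, and 4 of 169 sense intronic genes rose and 83 fell, and the strand setting of the counting is not known here.

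Of 10 messenger RNAs of the RAB13 class, which are known to gather in protrusions, 4 fell in cell bodies and 0 rose, with a median of -0.17. Of all genes tested 20.5% fell and 18.1% rose. In this class 1 was higher at an unadjusted edgeR p under 0.05, 0 in DESeq2 and 1 in limma-voom. RAB13 stood at 22.9, 19.9 and 18.2 CPM in cell bodies and 18.1, 19.4 and 20.8 CPM in whole cells, and KIF1C, the motor that carries such mRNAs, at 144, 153 and 159 CPM against 170.5, 169 and 178 CPM, neither of them called. In the pseudopodia libraries the same genes stood at 503, 423 and 421 CPM and at 4131, 3612 and 5134 CPM. PKP4 fell by 0.54 ± 0.12, RASSF3 by 0.73 ± 0.12 and TRAK2 by 0.57 ± 0.13, the last lost with GC and length offsets. The other member that fell was DDR2, given above with the receptors, whose call was lost in several fits, including that with GC and length offsets.

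Metabolic, growth and structural lists complete the comparison. Cholesterol synthesis and uptake genes of the SREBP factors rose in 12 of 20 cases and fell in 0, also at an unadjusted edgeR p under 0.05, in DESeq2 and in limma-voom (median 0.51). INSIG1, the SREBP regulator of the endoplasmic reticulum, and the synthesis enzyme SQLE rose by 2.25 ± 0.25 and 1.62 ± 0.14. Of 30 cell cycle genes 8 fell, a share of 26.7% close to the background of 20.5%, and their median of -0.06 was that of all genes, while 1 rose, CCND1 (0.67 ± 0.17). CENPF, a kinetochore gene, stood at 1.34, 4.23 and 1.77 CPM against 21.8, 18.7 and 22.8 CPM (-3.11 ± 0.48), and KIF11 (-2.48 ± 0.39) and TTK (-2.50 ± 0.44) fell too. MKI67 stood at 5.07, 23.0 and 3.48 CPM in cell bodies, with replicate 2 well above the others, and 54.3, 50.5 and 54.3 CPM in whole cells, and its call was lost without cell body replicate 1 (-1.99).

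Of 28 actin and contractile genes 13 rose and 1 fell (median 0.34), all rises under 2-fold, and 7 rose when whole cell replicate 1 or 3 was left out. The main fit's shares were 46.4% and 3.57%, against 18.1% and 20.5% of all genes tested. TAGLN2 and TMSB10 rose by 0.84 ± 0.15 and 0.77 ± 0.12, ACTB was not called (0.31 ± 0.13, adjusted p = 0.0826), and CALD1 fell by 1.26 ± 0.40, lost without cell body replicate 1 or 3 and without any 1 of the whole cell libraries (-1.26 to -0.95). GAPDH stood at 1926, 1865 and 1916 CPM against 1437, 1520 and 1471 CPM (0.37 ± 0.15, adjusted p = 0.0690). Most extracellular matrix genes were not called: 5 of 40 rose and 3 fell, against backgrounds of 18.1% and 20.5%, and 3 rose without cell body replicate 2 or 3 or any 1 of the whole cell libraries, but 13 with only the 6 libraries. COL1A1, the chain of the most abundant collagen, stood at 22388, 28168 and 22556 CPM in cell bodies and 24102, 23966 and 25083 CPM in whole cells, a log2 difference of -0.00 ± 0.15 (adjusted p = 0.997). TIMP1 rose by 1.24 ± 0.15, TIMP3 by 1.16 ± 0.16 and ELN by 0.69 ± 0.12. VCAN fell by 1.42 ± 0.37, lost without cell body replicate 1 or 3 (-1.21 to -1.17), and ABI3BP fell by 1.65 ± 0.41. Among the line's own markers CSPG4 (1.56 ± 0.21), CD44 (1.07 ± 0.16) and S100A4 (0.84 ± 0.15) rose. ALCAM fell by 1.70 ± 0.51, lost without cell body replicate 2 or 3 and without any 1 of the whole cell libraries (-1.71 to -1.52), and VIM was not called (0.23 ± 0.25).

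The pseudopodia libraries went through the same insert as the cell bodies, so their levels are given here for 10 of the genes described above, chosen after their values were seen. FOS stood at 51.3, 36.2 and 46.3 CPM in pseudopodia, below all cell body and whole cell libraries. ADM stood at 24.5, 17.6 and 20.2 CPM, CCN1 at 93.9, 72.1 and 81.1 CPM and NFKBIZ at 16.7, 12.2 and 9.95 CPM, all far below the whole cell libraries as well. On the other side HBEGF stood at 34.8, 33.0 and 40.4 CPM, PGF at 34.0, 42.8 and 61.2 CPM, FOSL1 at 476, 481 and 640.1 CPM and HMOX1 at 100.1, 97.3 and 141 CPM, far above the whole cell libraries. NFATC2 stood at 369, 458 and 417 CPM and NR4A3 at 63.0, 57.9 and 31.7 CPM. For these 10 genes both fractions of the insert lay on one side of the whole cell libraries. Because they were picked by their values, this says nothing about other genes. The share of all genes tested with this pattern was not counted, and some lists did not follow it. The unfolded protein genes summed to 3990 to 4367 CPM in cell bodies, 3714 to 3770 CPM in whole cells and 2108 to 2247 CPM in pseudopodia. The hypoxia genes summed to 3216 to 3426, 2566 to 2696 and 2246 to 2358 CPM in the same order, so pseudopodia lay below and cell bodies above the whole cells in both lists. The mitochondrially encoded mRNAs went the opposite way, with 26174 to 30785 CPM in cell bodies, 40008 to 45576 in whole cells and 64606 to 66617 in pseudopodia. In the heat shock, integrated stress, NRF2, p53, NF-kB and metallothionein lists both fractions summed above the whole cells. Heat shock genes summed to 5751 to 5893, 4005 to 4214 and 4825 to 4851 CPM in the same order. NRF2 genes summed to 6845 to 6901, 4758 to 5159 and 12921 to 16046 CPM. The comparisons of pseudopodia and of cell bodies with whole cells share the same 3 whole cell libraries, so neither comparison is independent of the other.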

How the data were processed

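The authors deposited whole-number read counts for each gene, from featureCounts per the labels, and deposited TPM values of the same libraries. The build was GRCh38 per the submitters' processing notes. For the aligner, annotation and strand setting the entry is: not given in the sources used here. Of 62710 genes, 1 without values was left out. TPM were the counts times a constant for each library and gene.

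All 9 libraries were fitted together in edgeR 4.0.16 (R 4.3.3) with TMM factors, the expression filter by group and the robust quasi-likelihood test, and the contrast was cell body minus whole cell. Benjamini-Hochberg adjusted p-values under 0.05 over 19426 genes were called. Standard errors came from the test statistic. The procedure was tested on simulated data. Positions came from GENCODE 29.

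The 32 gene lists (692 entries) and the rule for naming genes were chosen with earlier results of these data known: anchor genes, the 12 highest and 12 lowest fold changes with at least 5 CPM and no overlap, up to 4 members a list and direction, and 5 abundant genes a direction that changed at least 2-fold. Growth factor and stress genes beyond that are given to account for members. Some results are not reported here. Same-numbered libraries of the groups correlated at -0.08, -0.08 and 0.01, so numbers were not used as pairs. With so few libraries, centred on their group mean, such values cannot exclude a pairing. The 19 alternatives included DESeq2 1.42.0 and limma 3.58.1.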

Additional observations from a re-analysis of the deposited data

How the results depend on the processing

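The counts of 3521 genes higher and 3980 lower moved by over 1.5 times under few alternatives. With a filter of 5 CPM in 3 libraries, which left 10917 genes, 2066 were lower and 4667 called together. Limma-voom with sample weights called 5722 higher and 6245 lower, 11967 together. Leaving out 1 library gave 2338 to 3062 higher, 2711 to 3315 lower and 5049 to 6331 together, the lowest of each without whole cell replicate 1. The replicate numbers were not used as pairs in the main fit, and the replicate block gave 3051 higher and 3747 lower (6798 together). With the block and GC and length offsets it was 4594 and 3952, and with only the 6 libraries 5270 and 5464. The fit of only the 6 libraries also called HGF, HSP90AA1, CHORDC1, TGFB2, MDM2, PDGFRA, ACTB, GAPDH, HAS3 and SERPINE2. None of these genes was called in the main fit. DESeq2 called 3661 and 4003. Log2 differences near 0 changed sign. COL1A1 (main value -0.00) was 0.027 with DESeq2 size factors, 0.015 without mitochondrial and ribosomal protein genes, 0.069 without a low-count filter, 0.024 with only the 6 libraries, 0.0013 with the replicate block, 0.033 in DESeq2, 0.027 in limma-voom, and -0.108 to 0.0788 over the fits without 1 library. RAB13 (0.07) was -0.0197 with upper-quartile factors, -0.015 with the 5 CPM filter, -0.056 with GC and length offsets, -0.063 with these and the block, -0.111 on log2(TPM + 1), -0.114 on log2(TPM + 0.1), and -0.0178 to 0.169 without 1 library. NR4A1 (-0.02) was 0.013 with DESeq2 size factors, 0.056 without a low-count filter, 0.0204 with only the 6 libraries, 0.019 in DESeq2, and -0.31 to 0.219 without 1 library. NR4A2 (0.17) was -0.025 and -0.026 on the log2 TPM scales and -0.0207 to 0.325 without 1 library, and CXCL12 (0.12) was -0.056 and -0.056 on the TPM scales. The cause of these moves was not tested. Of 211 named genes that were called, 175 kept call and direction in every alternative that gave a value, and 0 reversed. At low counts the depth limits precision: wide differences were still called at about 1 CPM or less, as for HSPA6 and FGF17, while smaller ones may not have been detectable.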

Other observations

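Several families outside the lists held wide gaps, and the genes below were chosen after their values were seen. Hyaluronan synthases, the membrane enzymes that spin the matrix sugar hyaluronan, rose in cell bodies for HAS1 (11.5, 10.8 and 11.8 CPM against 0.294, 0.321 and 0.597 CPM in whole cells) and HAS2 (79.2, 72.6 and 85.1 CPM against 3.03, 2.77 and 3.18 CPM, log2 difference 4.72 ± 0.33, edgeR adjusted p = 9.42e-06), while HAS3 stood at 1.63, 2.12 and 1.70 CPM against 1.10, 1.06 and 1.34 CPM and was not called. Notch targets did not move as one. HEY1 stood at 63.9, 52.6 and 50.9 CPM against 4.16, 3.47 and 4.12 CPM (3.83 ± 0.16), HES4 rose by 3.12 ± 0.22, NRARP by 3.30 ± 0.26 and the Notch ligand JAG1 by 2.11 ± 0.17. HES1, the best known of these targets, stood at 29.8, 27.8 and 28.5 CPM in cell bodies against 196, 207 and 195 CPM in whole cells, the opposite direction. The receptor NOTCH3 was called higher (0.63 ± 0.21), a call lost without cell body replicate 2 or 3 and without any 1 of the whole cell libraries (0.46 to 0.66).

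The urokinase receptor and the plasminogen activators were called higher, as was thrombomodulin. PLAUR, the receptor of urokinase, stood at 159, 174 and 155 CPM against 22.6, 24.04 and 23.4 CPM (2.80 ± 0.15), and the activators PLAU and PLAT rose by 0.75 ± 0.13 and 1.31 ± 0.13. THBD, thrombomodulin, stood at 52.9, 68.4 and 64.6 CPM against 2.86, 3.37 and 3.36 CPM (4.28 ± 0.17, edgeR adjusted p = 1.21e-07). SERPINE2, an inhibitor of thrombin and urokinase, stood at 629, 665 and 659 CPM against 566, 583 and 564 CPM and was not called.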
